A study of Mus musculus with 15 samples.

Results

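Retinoic acid is made inside cells from vitamin A. Retinol is first oxidized to retinaldehyde, chiefly by Rdh10. Retinaldehyde is then oxidized to retinoic acid by Aldh1a1, Aldh1a2 and Aldh1a3. The cellular retinoic acid binding proteins Crabp1 and Crabp2 carry the product, nuclear receptors such as Rarb switch genes on when they bind it, and the Cyp26 enzymes break it down. In the skeleton this signal is known to act on the commitment of stromal cells to bone, cartilage and fat. The 9 genes described here are Aldh1a1, Aldh1a2, Aldh1a3, Aldh1a7, Rdh10, Crabp1, Crabp2, Rarb and Cyp26b1, out of 56832 genes in the table. They were chosen by name, around Aldh1a1, because Aldh1a1 was lower in TauT-/- cells, so their genotype differences are given as a description with no p-value, and counts of those past a threshold stand only beside the share of all tested genes. All 9 were among the 17204 genes that passed the filter on low counts and were tested.

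RNA was sequenced from mesenchymal stromal cells (MSCs) grown out of the long bone marrow of 16 week old C57BL/6J mice with (TauT+/+) or without (TauT-/-) the taurine transporter TauT, which is encoded by Slc6a6. The deletion is global, so every cell of the animal lacks the transporter, and no agent was added. There were 3 female TauT+/+, 4 female TauT-/-, 4 male TauT+/+ and 4 male TauT-/- libraries, with replicate numbers taken from the labels. The labels do not say which animal each library came from, so p-values measure the spread between these libraries.

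Before the results, 4 features of the libraries need stating. The male-labelled libraries held 69764291 to 101575071 counts and the female-labelled ones 12761107 to 20781070, and both genotypes were present at each depth. Replicate 1 of the male and female labels was nearly the same within each genotype. The median absolute deviation of the log2 ratio, over genes of at least 10 CPM, was 0.0978 for TauT-/- and 0.108 for TauT+/+. The next closest of 105 pairs stood at 0.263 and was male TauT-/- 3 with male TauT+/+ 3, which share a replicate number. The sex-linked genes went against the sex label in 3 of 15 libraries, which were male TauT+/+ 1, male TauT-/- 1 and female TauT+/+ 3. Slc6a6 itself was 592 to 2591 CPM in TauT+/+ and 401 to 1521 CPM in TauT-/- libraries, so reads of the targeted gene overlapped between the genotypes and do not check the labels. CPM is the usual depth-normalized count of a gene, here with TMM-scaled library sizes.

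The MSCs had been enriched by depleting CD45+, Ter119+ and CD31+ cells on magnetic beads or by flow sorting, but their RNA held markers of more than 1 cell type, whose summed levels overlapped between the genotypes. The summed level of 16 macrophage markers was 1578 to 10586 CPM in TauT+/+ and 7657 to 24760 CPM in TauT-/- libraries, and all 16 had a higher fitted level in TauT-/-, 1 of them past the adjusted threshold and 14 at an unadjusted p under 0.05, where 10.6% of all tested genes were higher. The summed level of 12 stromal markers was 28139 to 47600 CPM in TauT+/+ and 6308 to 40725 CPM in TauT-/- libraries, with 9 lower and 3 higher in TauT-/- and 0 past the threshold in edgeR. All 7 adipocyte markers had a lower fitted level in TauT-/-, with a median log2 fold change of -1.33 and 0 past the threshold. These markers ran from a log2 fold change of -4.22 (SE 1.18) for Adipoq to -0.07 (SE 0.482) for Fabp4. Their sums were 188 to 3010 CPM in TauT+/+ and 77.4 to 1268 CPM in TauT-/- libraries. The 10 endothelial markers summed to 9.64 to 20.5 CPM in TauT+/+ and 13.5 to 117 CPM in TauT-/- libraries. Of the 7 tested, 5 were higher, 2 lower and 0 past the threshold, and Kdr and Vwf had the highest means. The 7 osteoblast markers summed to 1583 to 7629 CPM in TauT+/+ and 3222 to 16690 CPM in TauT-/-, with 1 higher and 4 lower of 5 tested and 0 past the threshold. Most of this sum was Spp1, the 1 higher marker, at a mean of 4078 CPM in TauT+/+ and 10305 CPM in TauT-/-. Runx2, Sp7, Alpl and Ibsp had lower fitted levels in TauT-/-. In bulk RNA, fewer cells of a type and less RNA per cell cannot be told apart.

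Aldh1a1 and Aldh1a7 lie side by side and share much of their sequence, which bears on how far their reads can be separated. On GRCm39, Aldh1a1 spans chr19:20469539-20622825 on the plus strand and Aldh1a7 spans chr19:20667107-20704932 on the minus strand, 44281 bases apart, each with 13 exons and 1503 coding bases. The coding sequences are identical at 91.6% of positions, against 66.4% for Aldh1a1 and Aldh1a2 and 66.0% for Aldh1a1 and Aldh1a3. A stretch of the size of a read, 150 bases, holds at least 2 differences between Aldh1a1 and Aldh1a7, with a median of 11, and 0 such stretches are identical. The first 90 coding bases show how near the pair is, with the 5 differing bases in capitals.
Aldh1a1: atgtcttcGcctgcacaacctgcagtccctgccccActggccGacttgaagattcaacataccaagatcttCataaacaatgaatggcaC
Aldh1a7: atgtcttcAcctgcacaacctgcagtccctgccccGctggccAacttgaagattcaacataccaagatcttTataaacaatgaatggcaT
The longest identical run between them is 100 bases, so some reads of the pair may have been assigned to either gene or to neither, and the low values of Aldh1a7 are uncertain.

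Rarb is known both as a receptor of retinoic acid and as a gene that retinoic acid switches on, through a direct repeat of receptor half-sites next to its start. The windows of 250 bases before to 50 after each gene start (RefSeq, GRCm38.p6) were searched on both strands for pairs of half-sites in the same direction, 5 bases apart. A half-site was AGGTCA or its variant AGTTCA, or GGGTCA with its variant GGTTCA. Of 32851 windows, 32 (0.0974%) held such a pair. Windows were found for 6 of the 9 genes (Aldh1a1, Aldh1a2, Aldh1a7, Crabp1, Rarb and Cyp26b1), and among these Rarb held the repeat, which began 53 bases before the start. Cyp26a1, the sister gene of Cyp26b1, held 1 as well, on the opposite strand. Both are shown because they mark where the receptor that Rarb encodes is known to bind, with the repeat in capitals.
Rarb: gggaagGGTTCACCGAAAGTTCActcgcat
Cyp26a1: caaattAGTTCACCCAAAGTTCAtctttaa
On GRCm39 the Rarb stretch is chr14:5894228-5894257 on the plus strand, inside the gene (chr14:5650540-6041094), where exons of 14 of its 21 annotated transcripts cover the repeat. The Cyp26a1 stretch is chr19:37686217-37686246 on the minus strand, and its repeat lies just before the annotated gene (chr19:37686241-37689984). Pairs 1 base apart were in 0.222% and pairs 2 bases apart in 0.268% of windows, and in 0 windows of the 9 genes. A match is a description of letters and not evidence of binding in these cells.

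Per length, Aldh1a2 made up most of the Aldh1a RNA of these cultures. Dividing CPM by the length of the main annotated transcript (GENCODE M39) gave Aldh1a2 a median of 395 CPM per kilobase in TauT+/+ libraries, with a range of 33.0 to 446. The next level was that of Cyp26b1, with a median of 11.8 and a range of 4.34 to 61.5 CPM per kilobase, so the lowest Aldh1a2 library fell within the range of Cyp26b1. Rdh10 followed at a median of 7.07, Aldh1a3 at 2.87, Aldh1a1 at 2.28, Crabp2 at 1.37, Rarb at 1.32, Aldh1a7 at 0.290 and Crabp1 at 0.123 CPM per kilobase, and the ranges of all neighbours in this order overlapped. Aldh1a2 was 74.7% to 99.3% of the summed Aldh1a level per length in TauT+/+ and 76.5% to 99.1% in TauT-/- libraries. Its share was lowest in male TauT+/+ 3 and male TauT-/- 3, where Aldh1a3 made up 19.3% and 22.5%. Aldh1a1 was 0.508% to 5.15% (median 0.816%) of the sum in TauT+/+ and 0.204% to 0.994% (median 0.758%) in TauT-/- libraries. Its 5.15% was that of male TauT+/+ 3, where Aldh1a2 was lowest. The summed level itself had a median of 398 and a range of 44.2 to 457 CPM per kilobase in TauT+/+, and a median of 104 and a range of 39.9 to 484 in TauT-/- libraries.

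**Figure D1:**
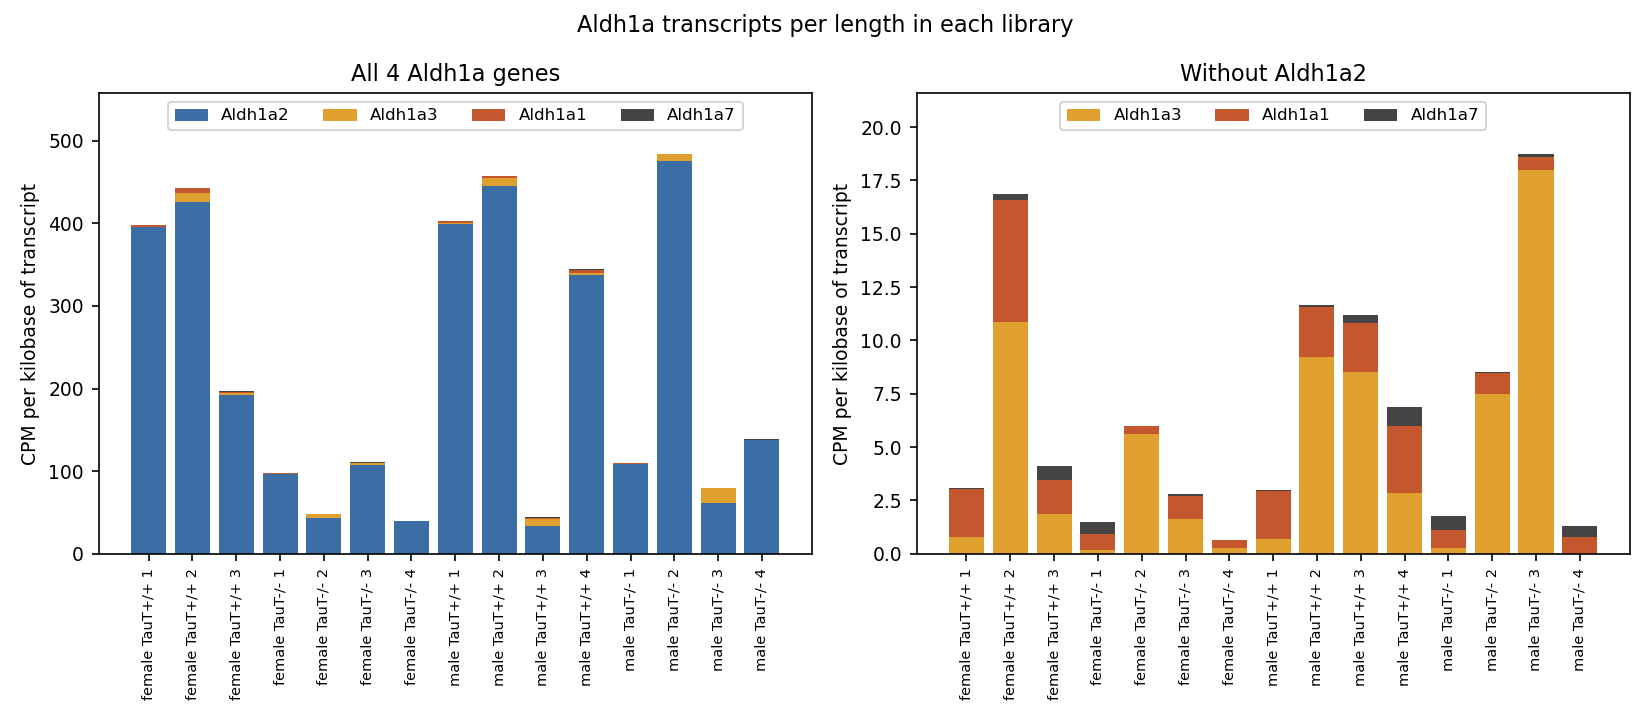
Stacked CPM per kilobase of transcript of the Aldh1a genes in each of the 15 libraries, with all 4 genes on the left and without Aldh1a2 on the right. Aldh1a2 fills most of every bar on the left, and the low bar of male TauT+/+ 3 (44.2) and the high bar of male TauT-/- 2 (484) break the pattern of their groups.

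Aldh1a1, which oxidizes retinaldehyde to retinoic acid and chose this gene group, was 13.7, 35.5 and 9.95 CPM in the female TauT+/+ libraries and 4.66, 2.06, 6.81 and 2.24 CPM in the female TauT-/- libraries. In the male-labelled libraries it was 13.9, 14.4, 14.1 and 19.4 CPM in TauT+/+ and 5.17, 6.12, 3.76 and 4.58 CPM in TauT-/-. Every TauT-/- library lay below every TauT+/+ library, with the highest at 6.81 and the lowest at 9.95 CPM. The TauT+/+ level was 17.3 ± 8.49 CPM (SD, n = 7), that of TauT-/- was 4.43 ± 1.69 CPM (SD, n = 8), and the fitted log2 fold change was -1.96 (SE 0.313), which is 3.89-fold lower. With either library of both near-identical pairs removed it was -2.05 (SE 0.355) or -1.99 (SE 0.353), and without the 3 libraries that went against their sex label it was -2.14 (SE 0.354). With the macrophage markers as a covariate it was -1.88 (SE 0.415). Leaving out female TauT+/+ 2, the library with the highest level, gave -1.61 (SE 0.254).

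Aldh1a2, the main retinaldehyde dehydrogenase of embryonic mesoderm, had the highest level per length of the 9 genes and overlapped between the genotypes. It was 1069, 1153 and 520 CPM in female TauT+/+ and 261, 116, 291 and 106 CPM in female TauT-/- libraries. In the male-labelled libraries it was 1081, 1206, 89.3 and 913 CPM in TauT+/+ and 293, 1288, 165 and 371 CPM in TauT-/-. Male TauT+/+ 3 was the lowest of all 15 libraries and male TauT-/- 2 the highest. The other 6 male-labelled libraries, like the female ones, had the higher values in TauT+/+. The fitted log2 fold change was -1.39 (SE 0.564), with -2.22 (SE 0.462) in the female-labelled and -0.63 (SE 0.836) in the male-labelled libraries alone. Without male TauT+/+ 3 it was -1.65 (SE 0.455), and without male TauT-/- 2 it was -1.91 (SE 0.473).

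Rdh10, the retinol dehydrogenase that supplies retinaldehyde, was 17.9, 35.5 and 27.9 CPM in female TauT+/+ and 7.18, 22.5, 6.81 and 7.45 CPM in female TauT-/- libraries. In the male-labelled libraries it was 17.5, 59.4, 28.5 and 29.6 CPM in TauT+/+ and 7.91, 17.6, 21.9 and 13.6 CPM in TauT-/-. The ranges overlapped, since the 3 highest TauT-/- libraries exceeded the lowest TauT+/+ library. The fitted log2 fold change was -1.22 (SE 0.330), with -1.29 (SE 0.487) in the female-labelled and -1.14 (SE 0.434) in the male-labelled libraries alone. With the macrophage markers as a covariate it was -0.85 (SE 0.458).

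Aldh1a3 and Aldh1a7 varied widely within every group. Aldh1a3, the third retinaldehyde dehydrogenase, was 2.85 to 43.7 CPM (median 11.6) in TauT+/+ and 0.136 to 72.5 CPM (median 3.83) in TauT-/- libraries. Its fitted log2 fold change of -0.41 was smaller than its SE of 1.06, and it was 0.28 (SE 1.47) in the male-labelled libraries alone. Aldh1a7, the rodent paralog of Aldh1a1, was 0.175 to 4.71 CPM (median 1.53) in TauT+/+ and 0.0480 to 3.41 CPM (median 0.605) in TauT-/- libraries, and rested on 1 to 350 counts in a library. Its fitted log2 fold change was -0.49 (SE 0.877), and -1.02 (SE 0.897) or -1.26 (SE 0.982) with either library of both near-identical pairs removed.

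The binding proteins also spread more within groups than between them. Crabp2, which hands retinoic acid to its receptors, was 0.684 to 46.8 CPM (median 1.28) in TauT+/+ and 0.313 to 9.67 CPM (median 3.19) in TauT-/- libraries. The mean was higher in TauT+/+ and the median was higher in TauT-/-, because male TauT+/+ 3 and 4 stood at 17.2 and 46.8 CPM. The fitted log2 fold change was -0.86 (SE 0.819), with 0.04 (SE 0.841) in the female-labelled and -1.50 (SE 1.16) in the male-labelled libraries alone. Crabp1 was near the limit of detection, with 0 to 82 counts in a library and 310 counts in all. Its 0 counts in female TauT+/+ 1 allow a level of up to 0.172 CPM, the value of 3 counts at that depth. Crabp1 reached 0.798 CPM in TauT+/+ and 0.908 CPM in TauT-/- libraries, and its fitted log2 fold change was 0.49 (SE 0.760).

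Rarb was 7.59, 4.82 and 1.70 CPM in female TauT+/+ and 0.471, 1.10, 1.04 and 0.313 CPM in female TauT-/- libraries. In the male-labelled libraries it was 7.64, 4.47, 3.18 and 1.14 CPM in TauT+/+ and 0.576, 1.37, 2.09 and 1.23 CPM in TauT-/-. These values rested on 6 to 525 counts in a library. The genotypes overlapped only through male TauT+/+ 4 and female TauT+/+ 3, which stood within the range of the TauT-/- libraries. The TauT+/+ level was 4.36 ± 2.59 CPM (SD, n = 7), that of TauT-/- was 1.02 ± 0.574 CPM (SD, n = 8), and the fitted log2 fold change was -2.11 (SE 0.466), which is 4.31-fold lower. The highest TauT+/+ values, 7.59 and 7.64 CPM, and 2 of the 3 lowest TauT-/- values, 0.471 and 0.576 CPM, came from the near-identical pairs. With 1 library of each pair left out the log2 fold change was -1.85 (SE 0.504) or -1.74 (SE 0.473). With the macrophage markers as a covariate it was -2.51 (SE 0.582).

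Cyp26b1, which degrades retinoic acid, was 59.3, 213 and 330 CPM in female TauT+/+ and 48.9, 55.2, 88.6 and 86.9 CPM in female TauT-/- libraries. In the male-labelled libraries it was 63.4, 56.5, 23.3 and 148 CPM in TauT+/+ and 50.0, 149, 25.1 and 120 CPM in TauT-/-. The genotypes overlapped under both sex labels. The fitted log2 fold change was -0.59 (SE 0.513), with -1.50 (SE 0.536) in the female-labelled and 0.26 (SE 0.662) in the male-labelled libraries alone.

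**Figure D2:**
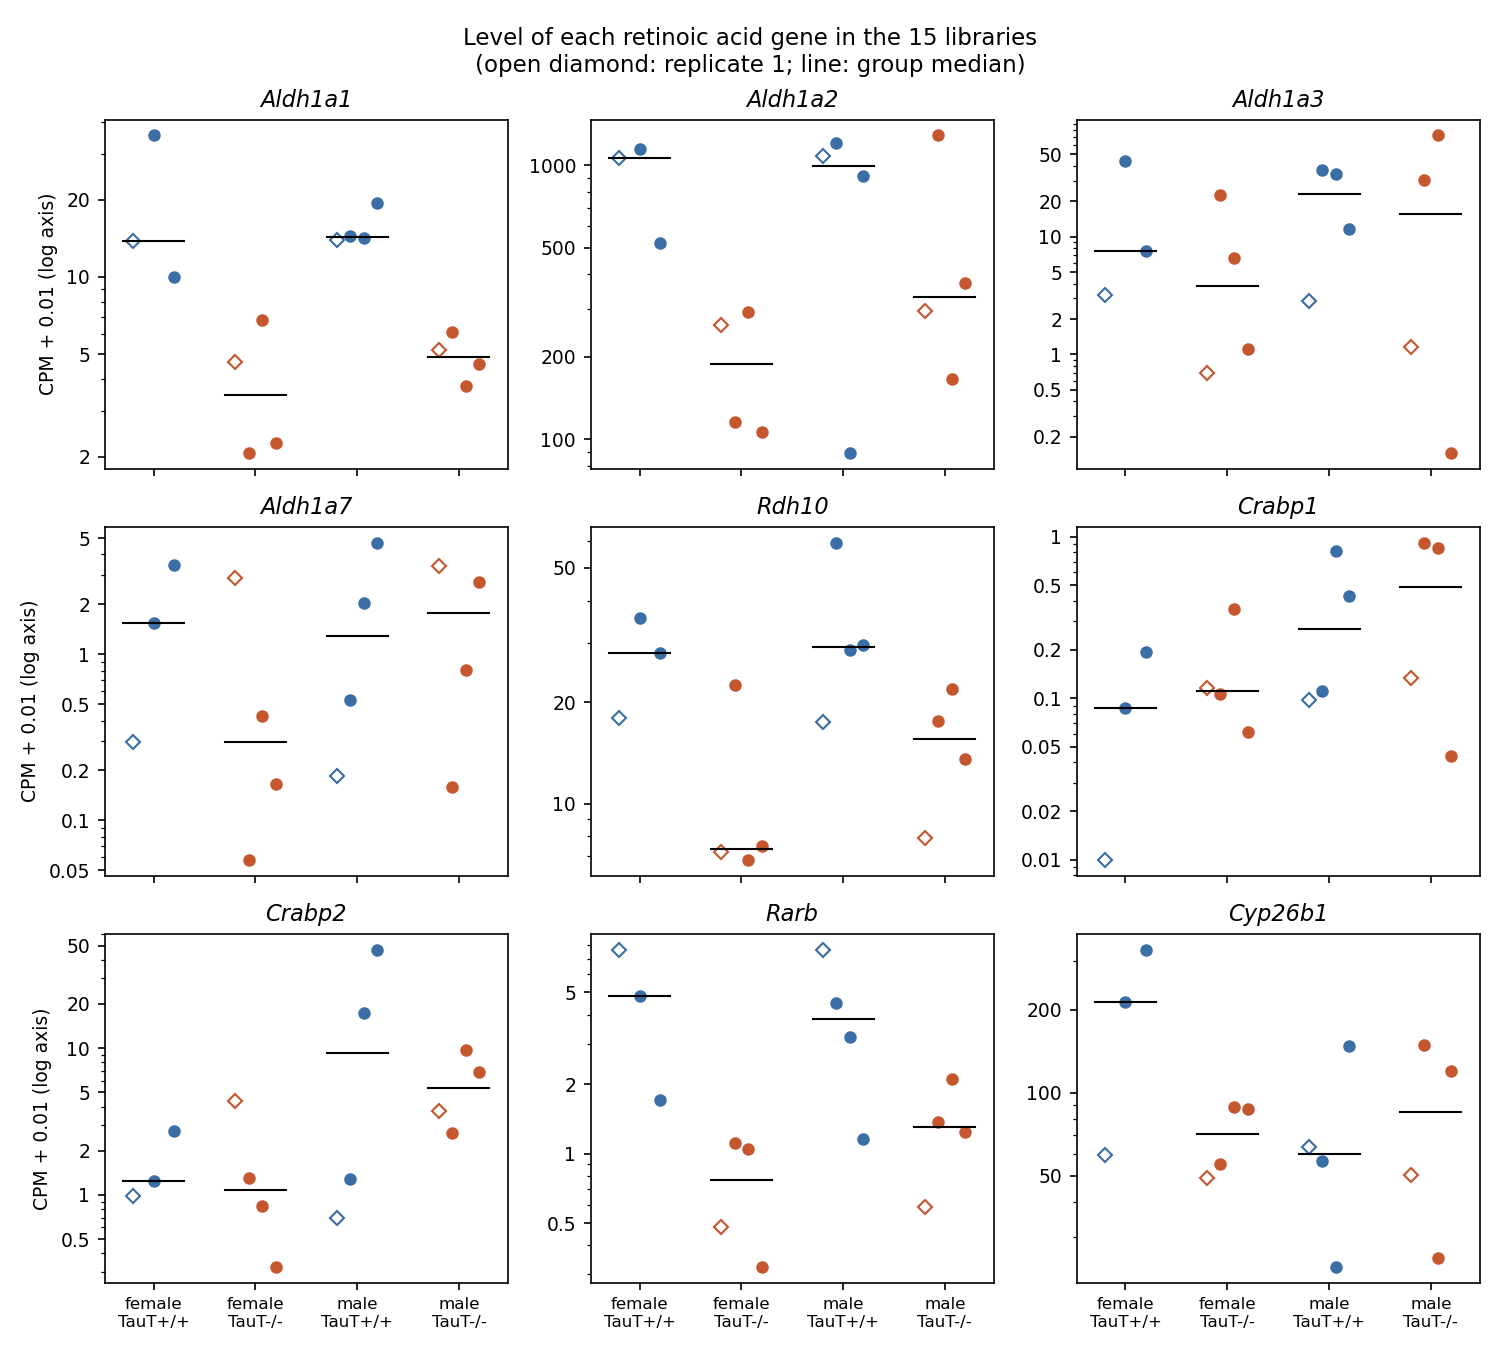
CPM of the 9 genes in each library on a log axis, after adding 0.01, by sex label and genotype. Blue points are TauT+/+, orange points TauT-/-, open diamonds replicate 1 (the near-identical pairs) and lines group medians. In the Aldh1a1 panel all TauT-/- points lie below all TauT+/+ points, from 6.81 CPM downwards.

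Across the 9 genes, 8 had a lower and 1 a higher fitted level in TauT-/-, with a median log2 fold change of -0.86, against -0.02 over all 17204 tested genes, of which 8888 were lower. Aldh1a1 and Rarb (2 of 9) passed an adjusted p of 0.05 in edgeR as lower, where 0.750% of all tested genes did, and 0 of 9 passed as higher, where 0.546% did. At an unadjusted p under 0.05, 4 of 9 were lower, where 13.0% of tested genes were, and 0 higher, where 10.6% were. Without overlap between the genotypes, 1 of 9 was lower, where 0.436% of tested genes were, and 0 of 9 higher, where 0.692% were. With DESeq2, Aldh1a1, Rdh10 and Rarb (3 of 9) passed as lower, where 6.43% of tested genes did, and 0 passed as higher, where 5.65% did. These counts are a description, since the genotype contrast chose the genes. With 1 of the 15 libraries left out, Rarb passed only without male TauT+/+ 3 or male TauT+/+ 4. In the fits with 1 library of each near-identical pair, and in those of each sex label alone, 0 of the 9 genes and 0 of all tested genes passed as lower.

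**Figure D3:**
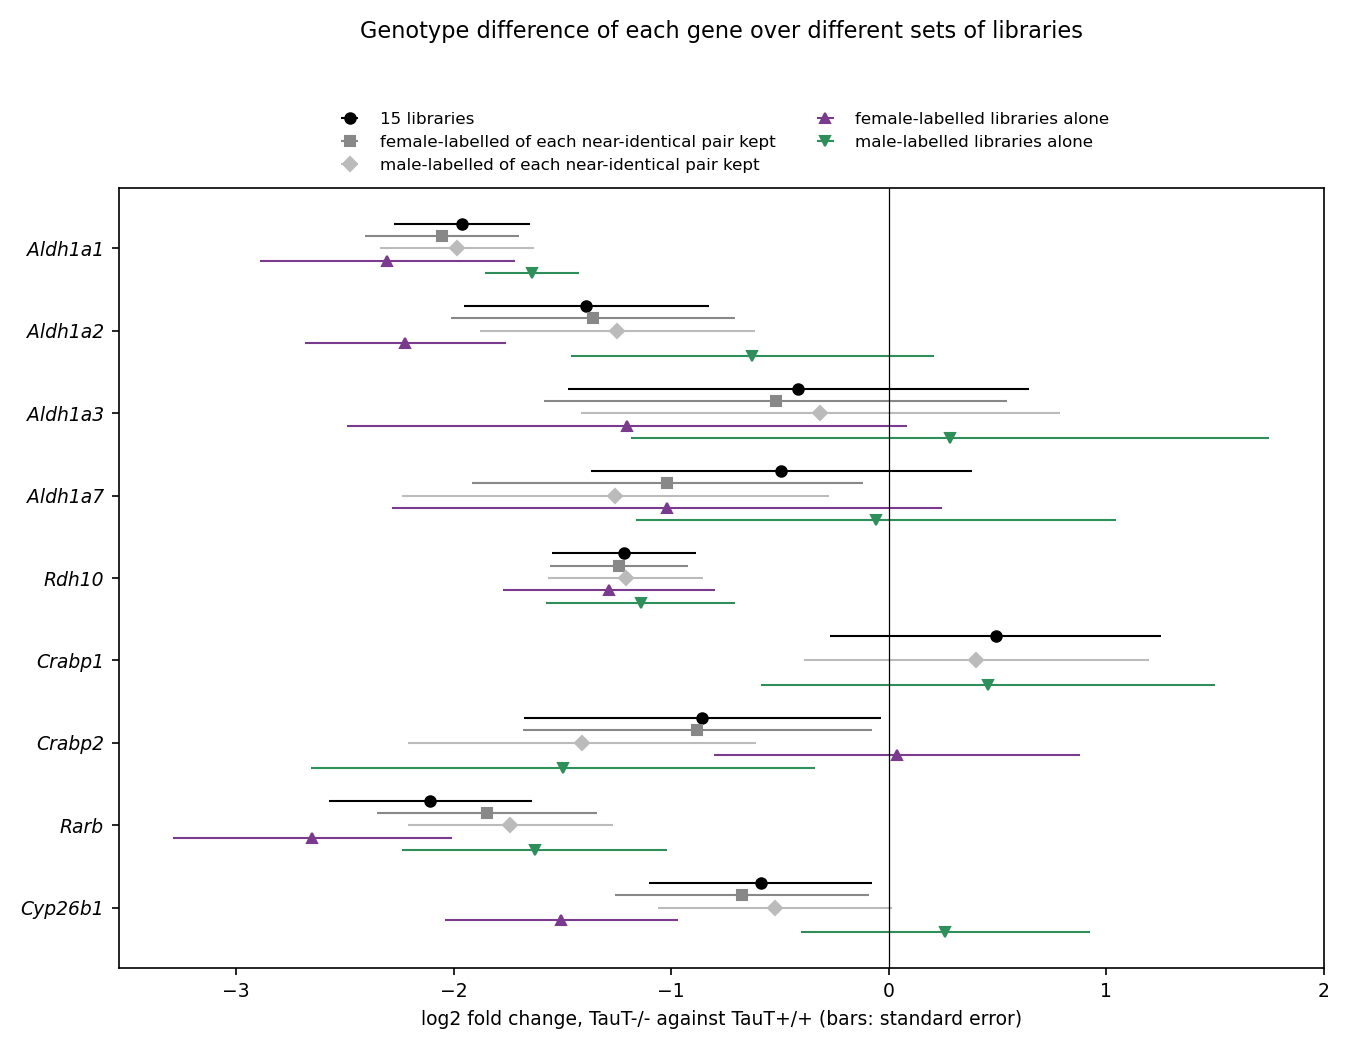
Fitted log2 fold change of TauT-/- against TauT+/+ for each gene, with standard errors, over 15 libraries, over 13 libraries with either member of each near-identical pair and within each sex label. Aldh1a1, Aldh1a2, Rdh10 and Rarb lie left of 0 in every fit, Crabp2, Aldh1a3 and Cyp26b1 change sides, and Crabp1 was below the filter on low counts in 2 fits.

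The genotype differences can be set beside the macrophage markers of the same libraries. Male and female TauT-/- 1 had summed macrophage markers of 7657 and 8389 CPM, within the 1578 to 10586 CPM of the TauT+/+ libraries, and summed stromal markers of 28417 and 27226 CPM, beside the TauT+/+ minimum of 28139 CPM. In these 2 libraries, which are 1 of the near-identical pairs, Aldh1a1 was 5.17 and 4.66 CPM, Aldh1a2 293 and 261 CPM, Rdh10 7.91 and 7.18 CPM and Rarb 0.576 and 0.471 CPM. With the macrophage markers as a covariate the log2 fold change of Aldh1a2 was -1.18 (SE 0.753). The part of the macrophage markers in the differences was not tested beyond this and the covariate fits given above. The part of the stromal markers was not tested.

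**Figure D4:**
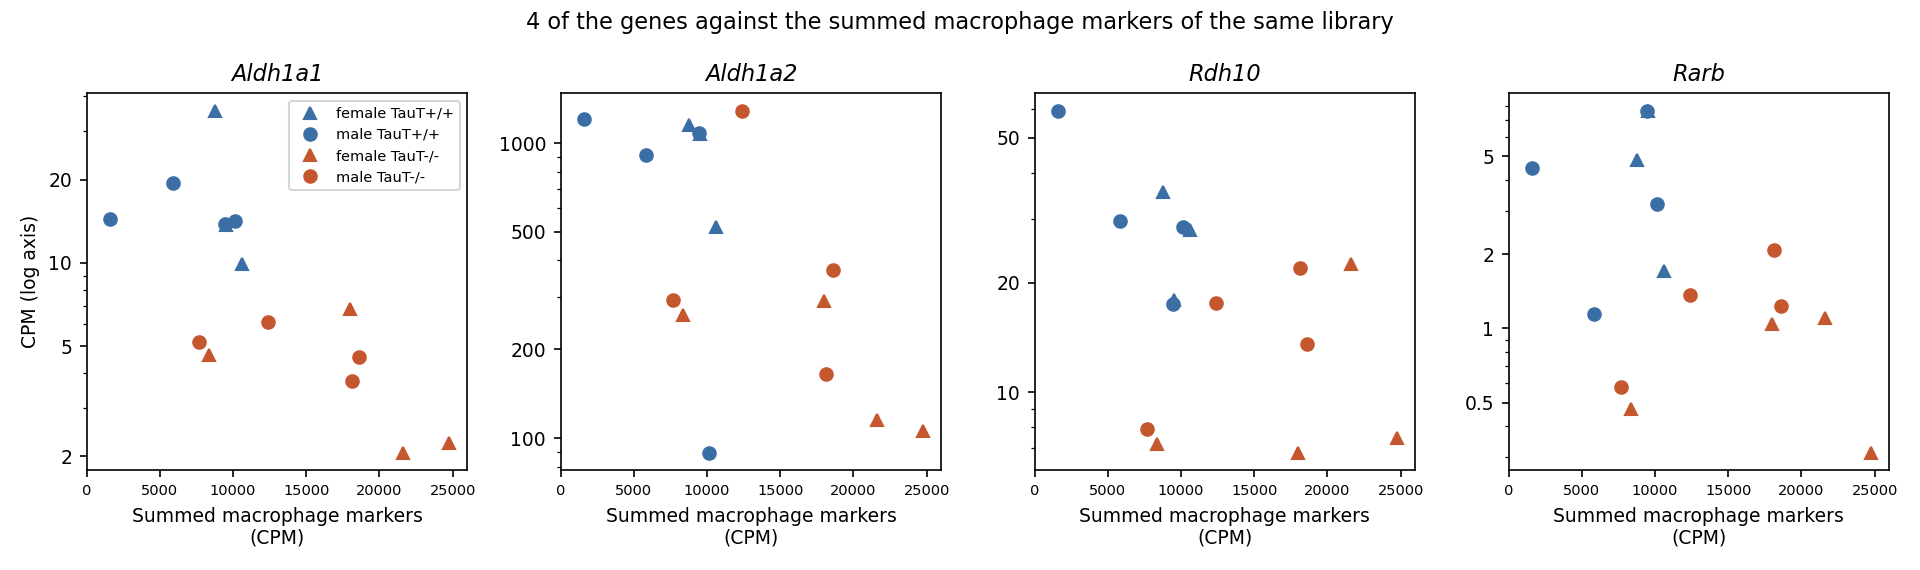
CPM of Aldh1a1, Aldh1a2, Rdh10 and Rarb (log axis) against the summed CPM of 16 macrophage markers in each library. Circles are male-labelled and triangles female-labelled libraries, blue TauT+/+ and orange TauT-/-. On the horizontal axis the blue points run from 1578 to 10586 CPM and the orange points from 7657 to 24760 CPM, so the genotypes overlap there.

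Whether the genotype difference depended on the sex label was tested as its own contrast, which played no part in the choice of genes. In edgeR 0 of 18263 tested genes passed (0%), with 295 at an unadjusted p under 0.05 (1.62%), and 0 of the 9 genes did either way. As male minus female, the differences of the 9 genes ran from -1.54 log2 units for Crabp2 (SE 1.58) to 1.75 for Cyp26b1 (SE 0.932, unadjusted p = 0.0825), each with an adjusted p of 1.00. The value of Crabp2 was -0.20 (SE 1.47) without male TauT+/+ 4 and -0.52 (SE 1.59) without female TauT-/- 1. DESeq2 called 0 of the 9 as well. The standard errors of these differences were 0.608 for Aldh1a1 to 2.13 for Aldh1a3, so only differences well above these sizes could be detected.

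Between the sex labels, with genotype in the model, 4 of 17204 genes passed in edgeR (0.0233%), and 0 of the 9 genes did, by edgeR or by DESeq2. Crabp2 was higher in male-labelled libraries by 2.45 log2 units (SE 0.860, unadjusted p = 0.0124, edgeR adjusted p = 0.880), at a mean of 11.1 against 1.67 CPM, and by 1.83 (SE 0.721) without male TauT+/+ 4. Crabp1 was at 1.80 log2 units (SE 0.810, unadjusted p = 0.0428, edgeR adjusted p = 0.880). At an unadjusted p under 0.05, 2.17% of all tested genes were higher in male-labelled libraries. Sex label and depth cannot be told apart here, and 3 libraries go against their label.

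Other retinoid genes and other aldehyde dehydrogenases were described through 60 further genes in 6 role groups, of which 44 were tested. Aldh16a1, a distant member of the aldehyde dehydrogenase family, was the 1 gene that passed, at 25.1 CPM in TauT+/+ and 34.7 CPM in TauT-/-, a log2 fold change of 0.46 (SE 0.0984, edgeR adjusted p = 0.0398). It ranged from 21.2 to 31.1 CPM in TauT+/+ and 28.7 to 41.8 CPM in TauT-/- libraries, with the highest TauT+/+ library, female TauT+/+ 3, above the lowest TauT-/- library. Its call held after leaving out 3 of the 15 libraries, which were female TauT-/- 1, male TauT+/+ 3 and male TauT+/+ 4, and was lost without any of the others. No gene passed as lower in edgeR, where 11 were lower and 6 higher at an unadjusted p under 0.05, against 13.0% and 10.6% of all tested genes. DESeq2 called 4 of the 44 lower and 4 higher, against 6.43% and 5.65% of all tested genes. The median log2 fold change of the 44 genes was -0.12, with 27 lower and 17 higher. Without the other aldehyde dehydrogenases, 0 of 30 tested genes passed in edgeR, with a median of -0.17.

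Among genes of retinol uptake and storage, 4 of 8 were tested, 1 higher and 3 lower, and 0 passed in edgeR. Rbp4, the plasma carrier of retinol, was 47.1 CPM in TauT+/+ and 7.71 CPM in TauT-/-, with a log2 fold change of -2.29 (SE 0.893, edgeR adjusted p = 0.144), and male TauT+/+ 2 at 237 CPM raised its mean. Without that library its log2 fold change was -0.99 (SE 0.616), and with the macrophage markers as a covariate -0.51 (SE 0.838). Of its 28 alternatives, Rbp4 passed as lower with DESeq2 only. The higher one, named after its values were seen, was Stra6l, a paralog of the retinol uptake receptor, at 0 to 0.617 CPM in TauT+/+ and 0.307 to 30.4 CPM in TauT-/- libraries, the highest being female TauT-/- 4. Its log2 fold change was 3.30 (SE 1.10, edgeR adjusted p = 0.103), and 2.36 (SE 0.735) without that library. It passed as higher with DESeq2 (adjusted p = 0.00473) and voom (adjusted p = 0.0215), and adjusted p-values over its alternatives ran up to 0.682, that with the macrophage covariate. Lrat, which stores retinol as esters, and Stra6, the retinol uptake receptor, were below the filter.

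Of 16 genes that interconvert retinol and retinaldehyde, 12 were tested, 0 passed in edgeR over the 15 libraries, and their median log2 fold change was 0.02. Those with the highest mean CPM were Dhrs3, which reduces retinaldehyde back to retinol, at 188 CPM in TauT+/+ and 191 CPM in TauT-/- (log2 fold change 0.02, SE 0.122, edgeR adjusted p = 0.953), and Adh5, at 65.4 and 70.6 CPM (0.10, SE 0.0945, edgeR adjusted p = 0.533). Rdh5, named after its values were seen, was at -1.36 (SE 0.352, edgeR adjusted p = 0.0619). It passed as lower with DESeq2, with voom and without male TauT+/+ 3.

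Of the 4 genes of degradation and of the fatty acid binding protein route, Fabp5 and Cyp2s1 were tested. Fabp5, a lipid carrier that also binds retinoic acid, was 67.9 CPM in TauT+/+ and 186 CPM in TauT-/- (log2 fold change 1.26, SE 0.372, edgeR adjusted p = 0.0807). It passed as higher with DESeq2, with voom and in the edgeR fit without male TauT+/+ 3. With the macrophage markers as a covariate its log2 fold change was 0.52 (SE 0.409). Cyp2s1, a cytochrome, was at 0.147 and 0.426 CPM (1.77, SE 1.13, edgeR adjusted p = 0.358). Cyp26a1 and Cyp26c1 were below the filter, which left Cyp26b1 as the only Cyp26 gene tested.

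Among the other receptors, Rxra, the partner of the retinoic acid receptors, was 126 CPM in TauT+/+ and 99.6 CPM in TauT-/- (log2 fold change -0.35, SE 0.138, edgeR adjusted p = 0.149), and Rarg was 117 and 88.2 CPM (-0.39, SE 0.138, edgeR adjusted p = 0.113). With the macrophage markers as a covariate they were at -0.20 (SE 0.172) and -0.12 (SE 0.141). Of 5 receptor genes, 4 were tested, 3 lower and 1 higher, and 0 passed in edgeR over the 15 libraries. Rxra passed as lower with voom, and Rarg did without male TauT+/+ 3.

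Of 12 genes known to respond to retinoic acid, 8 were tested, all 8 had a lower fitted level in TauT-/-, and 0 passed in edgeR, with 3 lower at an unadjusted p under 0.05, beside the 13.0% of all tested genes. Over all tested genes 8888 of 17204 were lower. Their median log2 fold change was -0.43, with a range of -0.97 to -0.02 and a lowest adjusted p of 0.0993. Tgm2, a crosslinking transglutaminase, was 232 CPM in TauT+/+ and 188 CPM in TauT-/- (log2 fold change -0.38, SE 0.390, edgeR adjusted p = 0.578), and it was 0.54 (SE 0.551) in the female-labelled and -1.09 (SE 0.317) in the male-labelled libraries alone. Nrip1, a nuclear receptor corepressor, was 47.0 and 37.5 CPM (-0.33, SE 0.193, edgeR adjusted p = 0.320).

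Of 15 other aldehyde dehydrogenases, 14 were tested, 8 lower and 6 higher, with a median log2 fold change of -0.06. Beside Aldh16a1, those with the highest mean CPM were Aldh2, the mitochondrial acetaldehyde dehydrogenase, at 361 CPM in TauT+/+ and 378 CPM in TauT-/- (0.07, SE 0.130, edgeR adjusted p = 0.776), and Aldh18a1, an enzyme of proline synthesis, at 82.7 and 104 CPM (0.37, SE 0.240, edgeR adjusted p = 0.367).

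**Figure D5:**
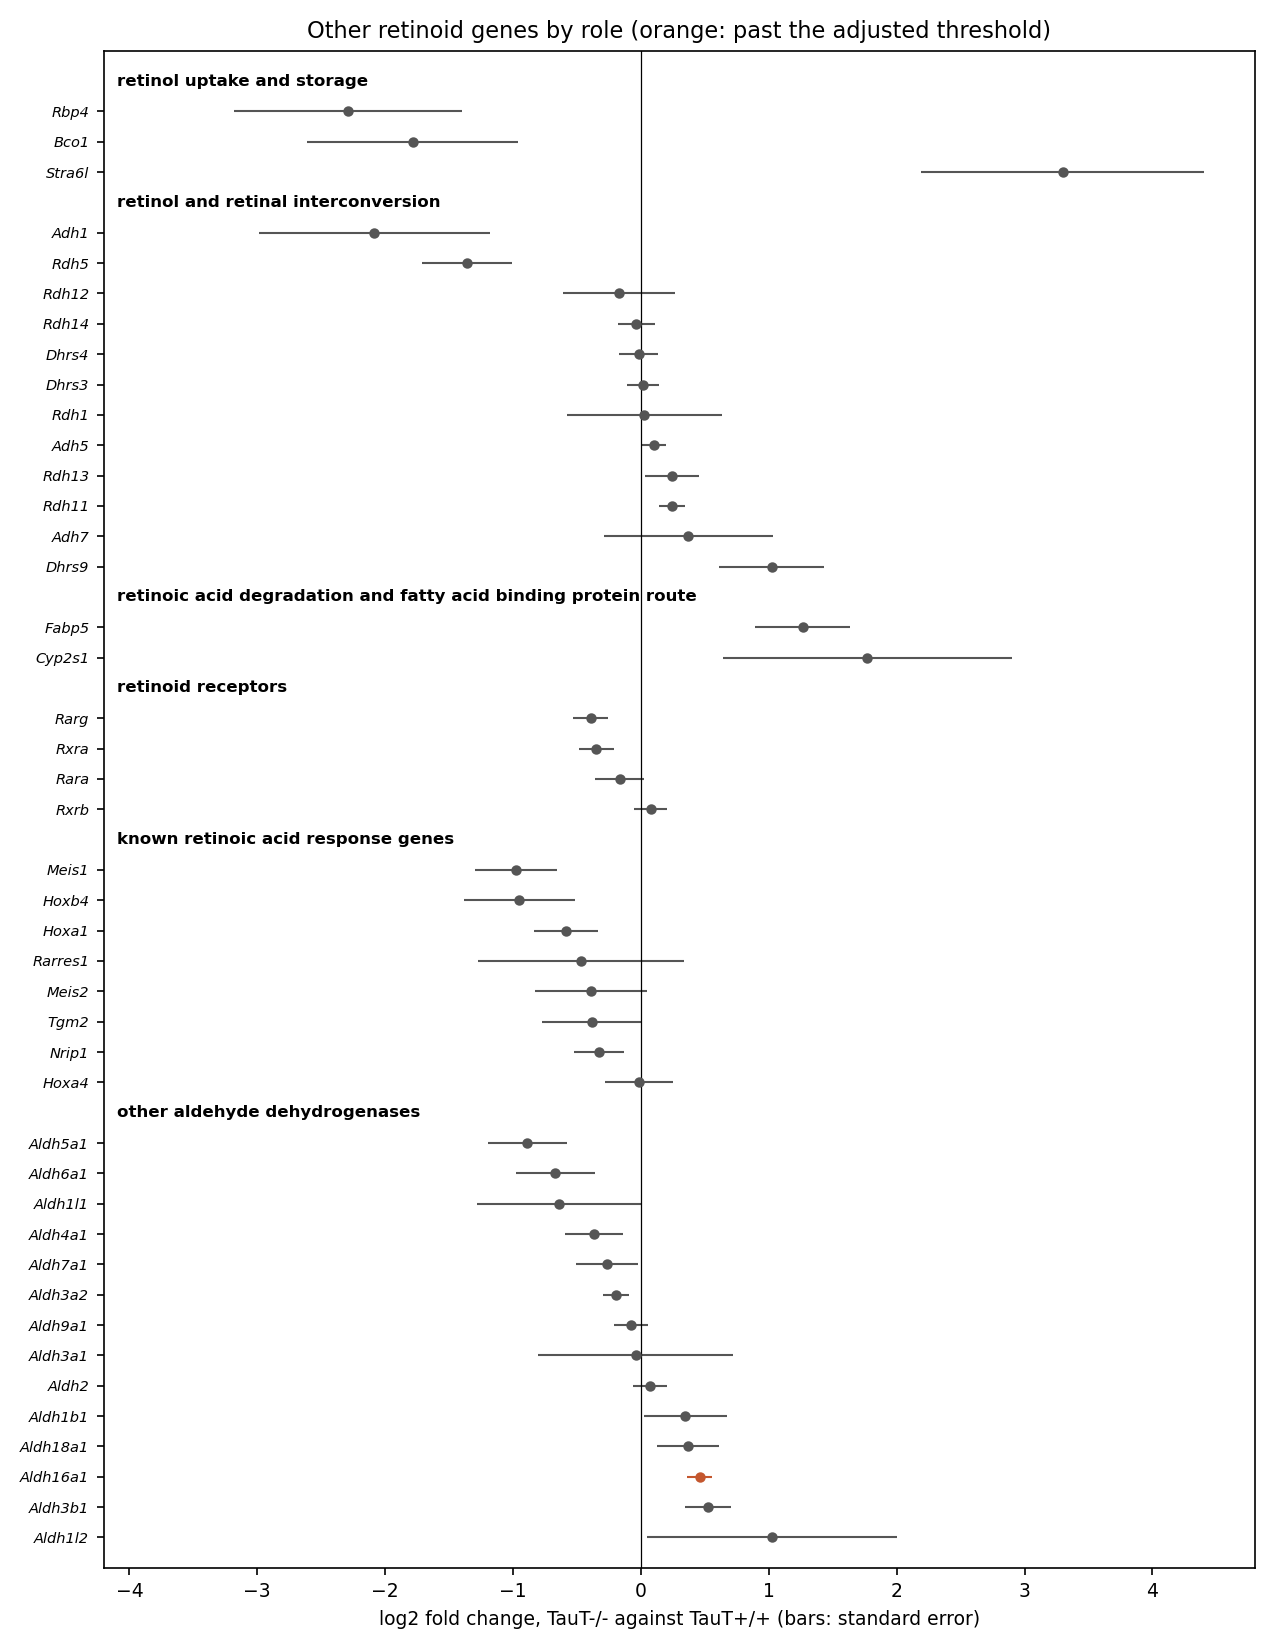
Fitted log2 fold change of TauT-/- against TauT+/+, with standard errors, for tested genes of the wider list by role. The 1 orange point is Aldh16a1 (0.46), and all 8 response genes lie left of 0, from -0.97 to -0.02.

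Within the groups, the genes whose levels varied most like that of Aldh1a1 were Arid5b (r = 0.859, rho = 0.868), Lclat1 (r = 0.858, rho = 0.911), Gcnt4 (r = 0.844, rho = 0.836), Smt3h2-ps (r = 0.820, rho = 0.609) and Lbh (r = 0.814, rho = 0.796). These are correlations of log2 CPM, as deviations from the 4 group means, over 15 libraries and among 13199 genes, and the libraries share depth and cell makeup and include the near-identical pairs. Among the other 8 genes the value was highest for Aldh1a2 (r = 0.479, rho = 0.582), and Rarb stood at r = 0.0631 and rho = -0.146.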

How the data were processed

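Per the study's methods, the authors enriched cultured marrow MSCs by magnetic depletion of CD45+, Ter119+ and CD31+ cells or by flow sorting, made full-length cDNA by oligo-dT priming, trimmed reads with fastp 0.23.1, mapped them with STAR 2.7.9a to GRCm39 with GENCODE M31 (the text calls it human) and counted them by strand with featureCounts of Subread 2.0.1. The deposited values are raw whole-number counts per gene, 56832 genes in 15 libraries, and 0 columns had no sample.

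Counts were fitted in R 4.3.3 with edgeR 4.0.16 (TMM, filterByExpr, quasi-likelihood, sex label and genotype, Benjamini-Hochberg over all tested genes), since the study's own model held sex and condition. SEs are the fold change over the root of the test statistic. DESeq2 1.42.0 on the same filtered genes and limma 3.58.1 (voom with quality weights) were alternatives, with upper-quartile scaling, other filters, no sex term, a block, a macrophage covariate, subsets and leave-outs. The fits were tested on simulated data in which 200 of 17204 genes were changed 4-fold. The calls held 175 changed genes of 180 in edgeR, 187 of 238 in DESeq2 and 173 of 180 in voom. In these simulated data the DESeq2 calls held the most unchanged genes. The simulated libraries were drawn independently with the spread fitted by edgeR, without near-identical pairs or shared cell makeup. They therefore cannot rank the tools on the real libraries. Sequences were read with Python 3.11.15 and aligned with Biopython 1.88. Positions come from GENCODE M39.

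The genes and lists were chosen with earlier results of these data known. Named genes are the 9 genes, those of each role group past the threshold and its 2 tested genes of highest mean CPM, and the 5 genes, of at least 1 CPM, most like Aldh1a1. A gene that the rule names is not reported here. Intervals and floors cover counting error only.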

Additional observations from a re-analysis of the deposited data

Results flagged for a closer look

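In groups of 4 libraries, the gap between the highest or lowest library and its neighbour was compared with the range of the group, both as log2 CPM, for 27 groups in all, where chance alone marks about 1 in 20. Aldh1a1 was high in male TauT+/+ 4, at 19.4 CPM against 13.9 to 14.4 CPM in the other 3, a gap of 0.889 of the range. Aldh1a2 was low in male TauT+/+ 3, at 89.3 CPM against 913 to 1206 CPM, a gap of 0.893 of the range. On the linear CPM scale this gap was 0.738 of the range, which is below the critical value that the log2 gaps exceeded. Rdh10 was high in female TauT-/- 2, at 22.5 CPM against 6.81 to 7.45 CPM, a gap of 0.924 of the range.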

How the results depend on the processing

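The number of the 9 genes past the threshold as lower was 2 and ranged from 0 to 4 over 28 alternatives. It was 1 with no filter (Aldh1a1), where 42 of 33207 tested genes passed as lower, and 1 with the replicate block (Rdh10), where 75 of 20681 did. With at least 10 counts in every library it was 1 (Aldh1a1), where 200 of 12145 did. Rarb, with as few as 6 counts in a library, was not tested under that filter. The number was 0 with the macrophage covariate, in each sex label alone, with 13 libraries and with the 12 whose sex-linked genes go with the label. In each of these fits 0 of all tested genes passed as lower. Leaving out 1 library gave 1 to 4, the 4 without male TauT+/+ 3. The number past it as higher, and those for the difference between the sex labels and for the sex label, were 0 throughout. On the wider list, 4 genes passed as lower with DESeq2 and with voom and 0 to 3 with 1 library left out. As higher, 4 passed with DESeq2, 3 with voom and 0 to 3 with 1 library left out. With no filter, the covariate, each label alone, 13 or 12 libraries, 0 of the list passed as higher. Over all tested genes 32 passed as higher with no filter, 2 or 7 with 13 libraries and 0 in the others of these fits. Aldh1a1 ranged from -2.30 to -1.61 log2 units and Rarb from -2.65 to -1.63.

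The sign turned for Aldh1a3 in male-labelled libraries (0.28; -1.13 to 0.39 with 1 library left out, above 0 without female TauT+/+ 2), for Aldh1a7 (0.11) and Crabp1 (-0.011) with the covariate, for Crabp2 with voom (0.25), the block (0.10) and female-labelled libraries (0.037), for Cyp26b1 in male-labelled libraries (0.26), and for Tgm2 in female-labelled ones (0.54). Dhrs3 was -0.051 with voom and -0.042 to 0.095 with 1 left out. The causes were not tested. Over all genes, edgeR called 129 lower and 94 higher, DESeq2 1106 and 972, voom 708 and 611, and the fit without male TauT+/+ 3 called 779 and 476.

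The labels do not say that a replicate number marks a shared source, and not every pair of the same number deviated together, so no pairing was assumed. Deviations of the same number correlated at -0.0396 to 0.622 over 7 pairs, 5 of them above 0.1, including all 4 male-labelled pairs, and 5 of 7 libraries were closest to their own number. With the replicate block Rdh10 passed, at -1.17, and Aldh1a1 at -1.77 and Rarb at -1.75 did not, while over all genes 75 were lower and 57 higher. The depth of the female-labelled libraries limits Crabp1 and Aldh1a7, which fell to 0 and 1 counts there.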
